A study of Mus musculus with 16 samples.

Results

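Sorafenib is a small molecule that occupies the ATP site of several protein kinases, and 9 genes encoding kinases it is known to target were followed here. They were chosen by name from the drug's known pharmacology, at a point when earlier results of these data were known. The set holds 2 RAF kinases (Araf and Braf), the 2 PDGF receptors (Pdgfra and Pdgfrb), the 3 VEGF receptors (Flt1, Kdr and Flt4, which encode VEGFR1, VEGFR2 and VEGFR3), the stem cell factor receptor Kit and the GDNF-family receptor Ret. All 9 were found among the 40840 genes counted, and all 9 were among the 20444 genes with enough counts to be tested. RAF kinases sit inside the cell and pass the signal of active RAS to MEK and ERK. The other members are receptors in the cell membrane that bind secreted growth factors and, among other routes, feed that same cascade. In liver tissue the VEGF receptors are best known from endothelial cells, the PDGF receptors from stellate cells and other mesenchymal cells, Kit from mast cells and progenitors, and Ret from neural crest derivatives.

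The cells were mouse p53-/-; Myc hepatoblasts, a line of fetal liver progenitors that lacks p53 and overexpresses Myc and is used as a model of hepatocellular carcinoma. Every group shared that genotype, and the groups differed in treatment and time. Cells received sorafenib at 8.5 µM or the vehicle DMSO, for 48 hours or for 7 days, with 4 libraries in each of the 4 groups and 16 in all. This is a single line, and nothing states that the 4 libraries of a group came from separate cultures, so the p-values measure the spread between these libraries, which may be technical.

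The libraries held 16586254 to 30828427 counts. Of 16 hepatoblast and liver progenitor markers, 8 reached 1 CPM (counts-per-million) in every library of each group. Dlk1, a fetal liver marker, averaged 32234 normalized counts (counts scaled to a common library size) in DMSO at 48 hours, and Krt19, Sox9, Foxa2, Cebpa and Lin28b were also present, whereas Hnf4a, the hepatocyte master regulator, had no count in any library and Alb averaged at most 0.45 normalized counts in a group. With sorafenib the summed level of these markers was lower, at 1433 to 1485 CPM in DMSO against 549 to 630 at 48 hours. At 7 days it was 782 to 852 against 299 to 311 CPM. In DMSO at 48 hours most of the sum came from Dlk1, so the sum does not describe the markers one by one. Of the 12 tested, 3 were higher and 6 lower at 48 hours, against 26.9% and 27.7% of all genes tested. At 7 days 4 were higher and 7 lower, against 28.9% and 27.9% of all genes tested. The part of these markers in the changes of the kinases was not tested.

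Several libraries stood apart from others of their group by the chi-square per gene between them. DMSO 7 days replicate 4 differed by 53.1 to 71.6 from its group, whose other libraries differed by 1.94 to 3.20 among themselves. DMSO 48 hours split into replicates 1 and 4 (5.09) and replicates 2 and 3 (5.95), with 18.7 to 42.7 between them. Leaving out any 1 of these 5 libraries changed no call of a member, except that of Flt1 without DMSO 48 hours replicate 3, given with Flt1. Sorafenib 48 hours replicate 2 differed by 32.6 to 38.1 from its group. In this library the genes in genome order from an estimated place at chromosome 15 position 31454566 (GRCm39) to the end of the X chromosome were at 0.604 of the level in the other replicates, relative to the genes before that point. The step measured 0.73 on the log2 scale, and the other libraries had steps of at most 0.0914. Among the members only Araf and Pdgfrb lie beyond that point, and their values are given with and without this library. For Flt1, Kdr, Flt4, Kit and Pdgfra, which lie before it, this library was the highest of its group. Leaving out each library in turn, their 48-hour calls held. The log2 fold changes ranged from 3.49 to 3.62 for Flt1, 1.23 to 1.47 for Kdr and −0.30 to −0.22 for Flt4. They ranged from 0.52 to 0.57 for Kit and −2.18 to −2.09 for Pdgfra.

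Promoter sequences are shown for the expressed members with the largest changes, Flt1 and Kdr, which rose with sorafenib, and Pdgfra, which fell. Each window runs from 250 bases before to 50 bases after the annotated start (GRCm39, 5′ to 3′ on the gene's strand), and capitals mark the letters of the motifs that were found. The windows are chr5:147662772-147663071 (minus strand) for Flt1, chr5:76139069-76139368 (minus strand) for Kdr and chr5:75312672-75312971 (plus strand) for Pdgfra.
Flt1: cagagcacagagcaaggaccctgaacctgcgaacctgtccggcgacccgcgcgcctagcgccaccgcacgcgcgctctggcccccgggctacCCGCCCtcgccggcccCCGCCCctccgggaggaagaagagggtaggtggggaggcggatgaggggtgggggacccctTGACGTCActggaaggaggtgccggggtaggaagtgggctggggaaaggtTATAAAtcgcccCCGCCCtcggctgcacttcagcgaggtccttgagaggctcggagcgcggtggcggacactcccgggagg
Kdr: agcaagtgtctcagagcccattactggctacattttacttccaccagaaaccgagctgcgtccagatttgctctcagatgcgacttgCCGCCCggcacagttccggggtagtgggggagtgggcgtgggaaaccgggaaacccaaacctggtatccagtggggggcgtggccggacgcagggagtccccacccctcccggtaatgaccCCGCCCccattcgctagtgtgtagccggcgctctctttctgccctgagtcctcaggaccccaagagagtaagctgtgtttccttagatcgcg
Pdgfra: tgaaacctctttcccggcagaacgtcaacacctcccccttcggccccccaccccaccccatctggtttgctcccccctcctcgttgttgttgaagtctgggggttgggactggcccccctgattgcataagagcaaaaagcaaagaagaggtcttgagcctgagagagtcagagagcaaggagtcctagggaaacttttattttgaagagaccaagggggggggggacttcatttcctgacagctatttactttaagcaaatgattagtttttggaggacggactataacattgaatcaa
The windows of the 8 members other than Pdgfrb were searched on both strands for 7 motifs. These were the E-box CACGTG, the AP-1 element TGACTCA, the cyclic AMP element TGACGTCA, the SP1 box GGGCGG, the ETS element CCGGAAG, the ATF4-type element TGATGCAA and the TATA box TATAAA. The Flt1 window held TGACGTCA, which 2.44% of 21770 promoters held, and TATAAA, which 13.2% held. GGGCGG stood in the windows of Flt1, Kdr, Kit and Ret and in 42.5% of all promoters. The Pdgfra window held none of the 7 motifs. CACGTG (7.81% of promoters), TGACTCA (4.7%), CCGGAAG (10.3%) and TGATGCAA (0.992%) were in none of the 8 windows. No motif overlapped another in the windows shown. These matches describe letters in a window and were not tested as binding sites.

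Of the 9 kinases, 8 were expressed in all 4 groups by the rule that every library of a group reach 1 CPM. Ret was the exception. It had 5, 6, 1 and 4 counts in the libraries of DMSO at 48 hours, 3, 0, 4 and 3 with sorafenib at 48 hours, and 3, 6, 7 and 5 in DMSO at 7 days. Only sorafenib at 7 days stood clear of these, with 27, 51, 26 and 26 counts, or 0.905 to 1.65 CPM, and at a limit of 0.5 CPM Ret would count as expressed in that group. Kdr was the lowest of the 8 expressed members, at 1.12 to 1.41 CPM in DMSO at 7 days.

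Levels of different genes can be set side by side only per length, here as CPM per kilobase of annotated exon. In DMSO at 48 hours Pdgfrb stood highest at 8.2 ± 0.266 (SD, n = 4), followed by Araf at 7.47 ± 0.324 and Flt4 at 7.04 ± 0.297, whose ranges overlapped. Pdgfra followed at 4.94 ± 0.0752, Kit at 2.89 ± 0.0952 and Braf at 2.68 ± 0.0750 CPM per kilobase, while Flt1 at 0.342 ± 0.0458 and Kdr at 0.210 ± 0.0520 lay well below the median of all 17941 genes with a length, which was 1.99. After 7 days of sorafenib the order was different. Araf at 6.36 ± 0.250 was followed by Flt1 at 5.41 ± 0.194, then by Braf at 4.43 ± 0.102 and Flt4 at 4.19 ± 0.308, whose ranges overlapped. Pdgfrb at 2.31 ± 0.0631 and Kit at 2.14 ± 0.120 CPM per kilobase also overlapped, and Kdr at 0.852 ± 0.0737, Pdgfra at 0.495 ± 0.0406 and Ret at 0.161 ± 0.0442 closed the order. By level per length, Flt1 stood at percentile 33.3 of all genes in DMSO at 48 hours. It stood at 38.4 in DMSO at 7 days and at 67.2 with sorafenib at 7 days. Pdgfra stood at 65.3, 53.6 and 36.7 in the same groups, so it was lower at 7 days in vehicle cells as well.

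With sorafenib at 48 hours, Araf (7.02 ± 1.19 CPM per kilobase) and Flt4 (5.93 ± 0.198) overlapped at the top, and Flt4 did not overlap Braf (5.39 ± 0.136). Braf, Pdgfrb (4.80 ± 0.965), Kit (4.28 ± 0.262) and Flt1 (4.03 ± 0.318) overlapped neighbour to neighbour, ahead of Pdgfra (1.14 ± 0.0856) and Kdr (0.526 ± 0.0606). In DMSO at 7 days, Flt4 (7.18 ± 0.266) and Araf (7.03 ± 0.0975) overlapped, as did Braf (3.71 ± 0.0573) and Pdgfrb (3.53 ± 0.247), followed by Pdgfra (2.36 ± 0.0837), Kit (1.23 ± 0.0588), Flt1 (0.541 ± 0.0340) and Kdr (0.135 ± 0.0143). The exon lengths came from a GENCODE annotation that may differ from the one used in counting. For Araf it gives 9.44 kb of exon but 2.54 kb for the canonical transcript, so the place of Araf rests on the length used. Other places depend on it too. Per kilobase of canonical transcript, with sorafenib at 48 hours, Flt1 (7.98 ± 0.631 CPM) moved from the sixth place to the third, Flt4 (7.80 ± 0.261) from the second to the fourth and Pdgfrb (7.19 ± 1.45) from the fourth to the sixth.

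**Figure D1:**
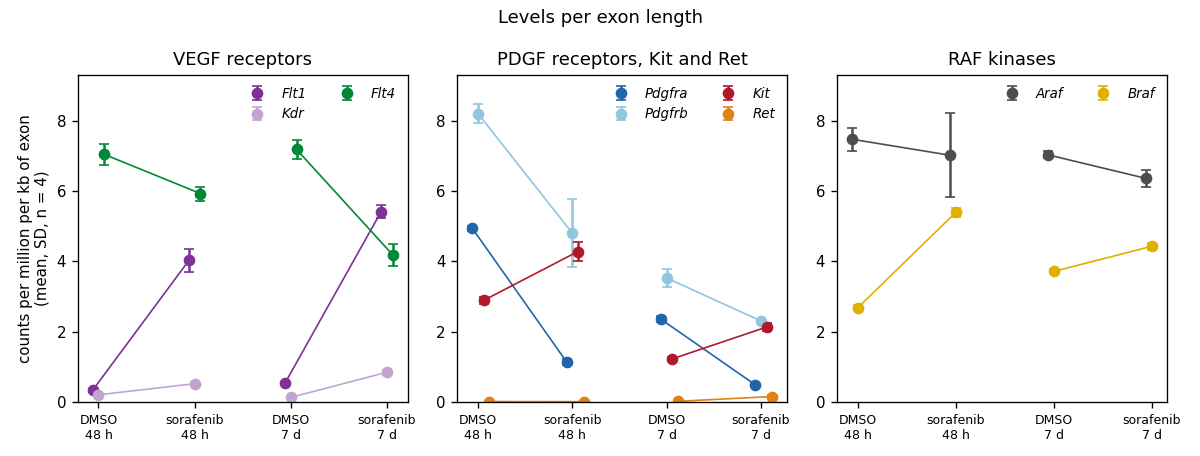
Levels of the 9 kinases in CPM per kilobase of exon (y axis, linear) in the 4 groups (x axis). Points are means of 4 libraries, bars are SD, and lines join DMSO with sorafenib at the same time. Flt1 rises from 0.342 to 4.03 at 48 hours and from 0.541 to 5.41 at 7 days, while Flt4 and both PDGF receptors descend.

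At 48 hours 7 of the 9 members changed with sorafenib at a false discovery rate (FDR) under 0.05 by edgeR's quasi-likelihood test, against a background of 54.6% of all 20444 genes tested. The 4 that rose were Braf, Flt1, Kdr and Kit (26.9% of all genes rose), the 3 that fell were Pdgfra, Pdgfrb and Flt4 (27.7% of all genes fell), and Araf and Ret did not pass. At 7 days 8 changed, against a background of 56.8%. Ret joined those that rose, which made 5 (28.9% of all genes rose), the same 3 receptors fell (27.9% of all genes fell), and Araf did not pass. Without sorafenib 48 hours replicate 2 it was Araf that passed at 7 days as well, as given with Araf. Changes of 1 or more on the log2 scale were found for 4 members at 48 hours (Braf, Pdgfra, Flt1 and Kdr), against 18% of all genes, and for 4 at 7 days (Pdgfra, Flt1, Kdr and Ret), against 20.6%. With most genes called, a call by itself does not set a member apart. The median absolute log2 fold change of the members was 0.76 at 48 hours and 0.79 at 7 days, where all genes tested had 0.50 at each time. The libraries with sorafenib and DMSO did not overlap for 7 members at 48 hours (48% of all genes) and for all 9 at 7 days (56.8% of all genes).

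**Figure D2:**
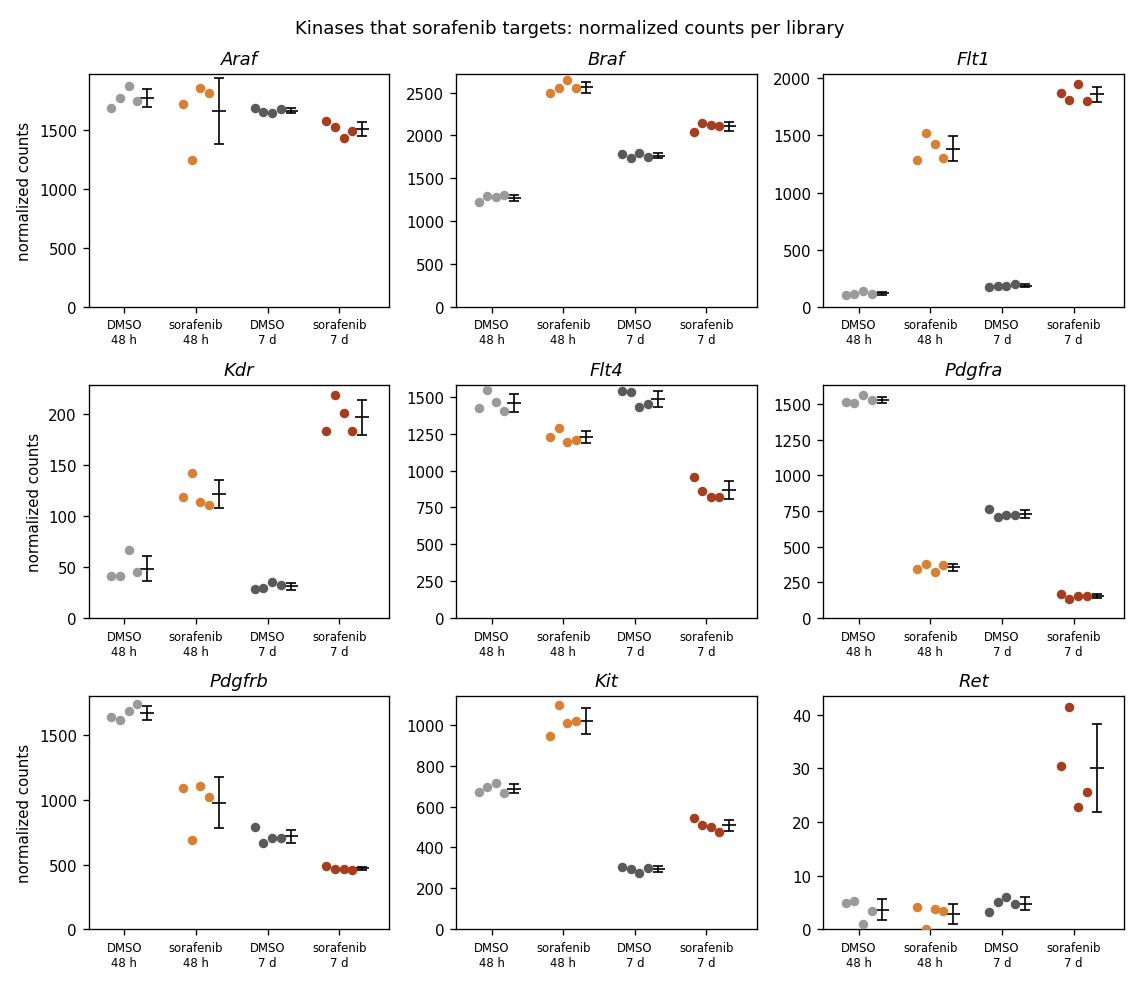
Normalized counts (y axis, linear from 0) of each kinase in all 16 libraries, by group (x axis). Points are libraries, and the bars beside them are the mean and SD of 4 libraries. Flt1 and Kdr stand higher and Pdgfra and Pdgfrb lower in each sorafenib group than in DMSO of the same time, and the single low points of Araf and Pdgfrb in sorafenib at 48 hours are replicate 2.

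**Figure D3:**
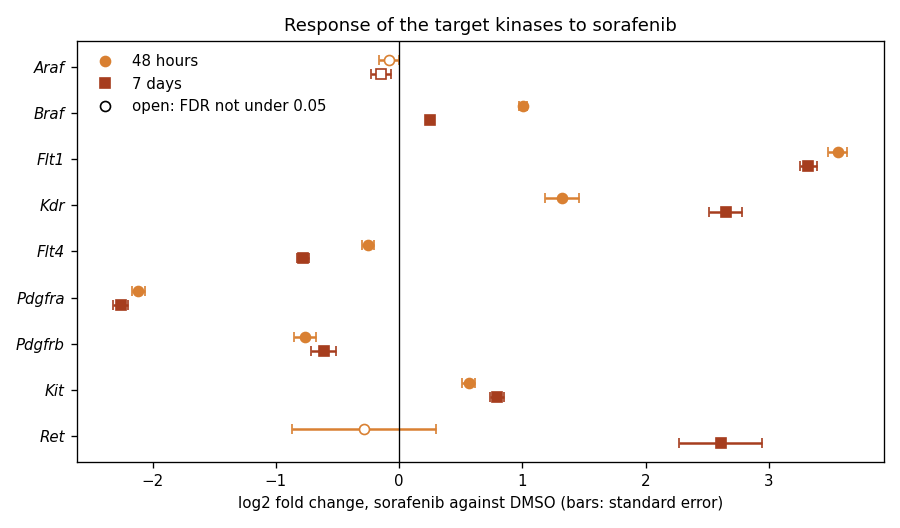
log2 fold change of each kinase, sorafenib against DMSO (x axis), at 48 hours (circles) and 7 days (squares), with the standard error of the fit as bars. Open symbols did not pass an FDR of 0.05. The values run from −2.26 for Pdgfra at 7 days to 3.56 for Flt1 at 48 hours.

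The responses at 7 days and 48 hours differed for 5 members, against 36.8% of all genes. The difference was upward for Kdr, Kit and Ret (15.5% of all genes) and downward for Braf and Flt4 (21.3%), and it reached 1 on the log2 scale for Kdr and Ret (9.61%). The members also differed between the times within a treatment. In DMSO 6 members differed at 7 days from 48 hours (49.4% of all genes), with Braf and Flt1 higher (23.9%), Pdgfra, Pdgfrb, Kdr and Kit lower (25.5%), 3 of them by 1 or more on the log2 scale (11%) and 6 without overlap of the libraries (50.8%). With sorafenib 8 differed (39.7% of all genes), with Flt1, Kdr and Ret higher (17.5%), Braf, Pdgfra, Pdgfrb, Flt4 and Kit lower (22.3%), 4 of them by 1 or more on the log2 scale (8.45%) and 8 without overlap (35.8%). Without sorafenib 48 hours replicate 2, Araf passed in both, which made 7 members in DMSO and 9 with sorafenib. The shares of all genes given here are from the fit with all libraries. They were not computed without that library, so the counts of 7 and 9 have no background beside them. The comparisons share groups, so their counts are given side by side only.

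Among the VEGF receptors, Flt1 rose most. Flt1 (chr5:147498414-147662826, minus strand) encodes VEGFR1, which binds VEGF-A, VEGF-B and PlGF and also exists as a soluble form that traps them. Its normalized counts were 108, 109, 141 and 112 in DMSO and 1287, 1518, 1424 and 1302 with sorafenib at 48 hours. At 7 days they were 173, 183, 186 and 201 in DMSO and 1873, 1812, 1947 and 1803 with sorafenib. Every treated library stood far above every vehicle library of either time. The level was 11.8-fold higher at 48 hours (log2 3.56, SE 0.0758, FDR 1.38e-18) and 9.98-fold higher at 7 days (log2 3.32, SE 0.0695, FDR 9.4e-19, edgeR). Counts over the whole gene do not tell the membrane form from the soluble one. The responses at the 2 times differed by −0.24 on the log2 scale, which did not pass (FDR 0.0908), although without DMSO 48 hours replicate 3, the highest of its group, the difference was −0.30 with an FDR of 0.0196. Flt1 also differed between times in vehicle cells (log2 0.67, FDR 3.45e-06) and in treated cells (log2 0.43, FDR 5.28e-06), being higher at 7 days.

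Kdr (chr5:76093487-76139884, minus strand) encodes VEGFR2, the main signalling receptor for VEGF-A. It had 41.1, 41.6, 66.4 and 44.9 normalized counts in DMSO at 48 hours and 119, 142, 114 and 111 with sorafenib. At 7 days the values were 28.1, 29.1, 35.4 and 32.5 in DMSO and 183, 219, 201 and 184 with sorafenib. The groups did not overlap at either time, and the treated libraries were highest at 7 days while the vehicle libraries were lowest then. Kdr rose 2.50-fold at 48 hours (log2 1.32, SE 0.139, FDR 7.39e-08) and 6.28-fold at 7 days (log2 2.65, SE 0.136, FDR 1.08e-12). The 7-day response was larger by 1.33 on the log2 scale (FDR 2.83e-05), making Kdr 1 of 5 members whose responses at the 2 times differed. In vehicle cells Kdr was lower at 7 days than at 48 hours (log2 −0.61, FDR 0.00492), a call that was lost with the replicate number as a block (FDR 0.106).

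Flt4 (chr11:49500090-49543582, plus strand), which encodes the VEGF-C and VEGF-D receptor VEGFR3 of lymphatic endothelium, moved the other way. Its normalized counts were 1422, 1544, 1464 and 1407 in DMSO and 1226, 1287, 1193 and 1209.5 with sorafenib at 48 hours. At 7 days they were 1539.7, 1532, 1431 and 1452 in DMSO and 959, 865, 824 and 824 with sorafenib. No treated library reached a vehicle library of its time. Flt4 fell 1.19-fold at 48 hours (log2 −0.25, SE 0.0488, FDR 0.00019) and 1.72-fold at 7 days (log2 −0.78, SE 0.0491, FDR 2.9e-11), and the difference between those responses was −0.53 (FDR 3.93e-06). The vehicle groups did not differ detectably between times (log2 0.03, FDR 0.669), and treated cells were lower at 7 days than at 48 hours (log2 −0.50, FDR 1.04e-07).

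In vehicle cells Flt4 was by far the most abundant VEGF receptor per length, and the makeup of the family differed with sorafenib. Per kilobase, Flt4 held 92.7% ± 1.20 (SD, n = 4) of the summed VEGF receptor transcripts in DMSO at 48 hours and 56.6% ± 1.54 with sorafenib, and 91.4% ± 0.769 against 40.0% ± 1.96 at 7 days. Flt1 went from 4.51% ± 0.555 to 38.4% ± 1.46 at 48 hours and from 6.90% ± 0.577 to 51.8% ± 1.70 at 7 days. Kdr went from 2.76% ± 0.647 to 5.01% ± 0.337 and from 1.73% ± 0.234 to 8.16% ± 0.762. The sum of the 3 receptors went from 7.59 ± 0.313 to 10.5 ± 0.523 CPM per kilobase at 48 hours and from 7.86 ± 0.230 to 10.5 ± 0.351 at 7 days, with no overlap between treatments. Per kilobase of canonical transcript, a length added after seeing the data, Flt4 held 90.2% ± 1.51 against 47.0% ± 1.57 at 48 hours and 88.0% ± 1.02 against 31.4% ± 1.75 at 7 days. Flt1 then held 6.60% ± 0.786 against 48.0% ± 1.53 at 48 hours and 61.1% ± 1.58 with sorafenib at 7 days, so which of them was higher with sorafenib at 48 hours turns on the length. The shares and sums are descriptions and were not tested.

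Markers of endothelial cells, the usual home of these receptors, were close to absent. Of 9 endothelial markers none was at 1 CPM or more in every library of any group, Tie1 had no count in any library, and Cdh5 averaged at most 0.64 normalized counts in a group. Their summed level was 1.51 to 1.75 CPM in DMSO and 0.279 to 0.644 CPM with sorafenib at 48 hours, and 0.903 to 1.24 against 0.665 to 0.835 CPM at 7 days. The part of these cells in the changes of Flt1, Kdr and Flt4 was not tested. In bulk libraries, fewer cells of a type and less RNA per cell cannot be told apart.

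Both PDGF receptors fell. Pdgfra (chr5:75311994-75358876, plus strand), the receptor for PDGF-AA and PDGF-CC among other dimers, had 1514, 1509.5, 1561 and 1528 normalized counts in DMSO and 345, 378, 321 and 373 with sorafenib at 48 hours. At 7 days it had 766, 704, 723 and 724 in DMSO and 165, 136, 154 and 157 with sorafenib. The 4 groups formed separate bands, and even the 48-hour treated libraries lay below the 7-day vehicle libraries. Pdgfra was 4.33-fold lower at 48 hours (log2 −2.11, SE 0.0545, FDR 2.4e-17) and 4.78-fold lower at 7 days (log2 −2.26, SE 0.0612, FDR 4.64e-17). The responses differed by −0.14 on the log2 scale, SE 0.0835, which did not pass (FDR 0.203). Pdgfra was also lower at 7 days than at 48 hours, in vehicle cells (log2 −1.07, FDR 6.5e-13) and in treated cells (log2 −1.21, FDR 1.8e-11). Time and any other difference between the 48-hour and 7-day sets cannot be told apart. Gm42802, on the opposite strand, overlaps 456 bases of the annotated Pdgfra exons.

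Pdgfrb (chr18:61178212-61218133, plus strand), the receptor for PDGF-BB and a marker of pericytes and stellate cells, had 1637, 1615, 1684 and 1738 normalized counts in DMSO and 1090.2, 688, 1109 and 1022 with sorafenib at 48 hours. Its 7-day values were 788, 669, 706 and 708 in DMSO and 488, 463, 469 and 459 with sorafenib. Treated libraries were below vehicle libraries at both times, and the value of 688 belongs to replicate 2, the library with the step along the genome. Pdgfrb fell 1.70-fold at 48 hours (log2 −0.76, SE 0.0929, FDR 6.03e-07) and 1.53-fold at 7 days (log2 −0.61, SE 0.101, FDR 3e-05). Without that library the 48-hour difference was −0.64 (FDR 5.38e-18) and the 7-day difference −0.61 (FDR 1.08e-15). The responses at the 2 times did not differ detectably, at 0.15 with all libraries (SE 0.137, FDR 0.43) and 0.03 without replicate 2 (FDR 0.79). As for Pdgfra, levels were lower at 7 days in vehicle cells (log2 −1.22, FDR 1.23e-09) and treated cells (log2 −1.07, FDR 4.69e-08), at −1.22 (FDR 5.68e-30) and −1.20 (FDR 1.3e-25) without replicate 2.

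Per kilobase, the PDGF receptors summed to 13.1 ± 0.311 CPM in DMSO and 5.95 ± 0.904 with sorafenib at 48 hours (SD, n = 4), and to 5.88 ± 0.331 and 2.80 ± 0.0938 at 7 days. Pdgfra held 37.6% ± 0.651 of that sum in DMSO against 19.8% ± 4.72 with sorafenib at 48 hours, and 40.1% ± 0.805 against 17.6% ± 1.02 at 7 days. Without replicate 2, left out after seeing the data, the treated sum at 48 hours was 6.40 ± 0.146 CPM per kilobase (SD, n = 3) and the share of Pdgfra 17.5% ± 1.69. Mesenchymal markers were abundant in these cells. The summed level of the 10 markers was 4793 to 4876 CPM in DMSO and 7449 to 8039 with sorafenib at 48 hours, and 4591 to 4743 against 5013 to 5204 CPM at 7 days, most of it from the collagens Col1a1 and Col3a1 and the smooth muscle actin Acta2. Of the 9 markers tested, 4 were higher and 4 lower with sorafenib at each time, and Lrat, a defining gene of quiescent stellate cells, had no count in any library. The part of these markers in the change of the PDGF receptors was not tested.

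In liver, Kit is best known from mast cells and progenitors, and Ret from neural crest derivatives. Kit (chr5:75735576-75817404, plus strand), the receptor for stem cell factor, had 673, 698, 716 and 666 normalized counts in DMSO and 947, 1099, 1012 and 1018 with sorafenib at 48 hours. At 7 days the values were 306, 293, 274 and 299.6 in DMSO and 546, 512, 499 and 477 with sorafenib. Treated libraries were higher than vehicle libraries of the same time, but the 7-day treated libraries were lower than the 48-hour vehicle libraries. Kit rose 1.48-fold at 48 hours (log2 0.57, SE 0.0515, FDR 9.12e-09) and 1.73-fold at 7 days (log2 0.79, SE 0.0579, FDR 2.84e-10). The difference of 0.23 between these responses passed narrowly (FDR 0.0253) and did not pass without DMSO 7 days replicate 3 (FDR 0.0670) or sorafenib 7 days replicate 1 (FDR 0.0580). Between times Kit fell by 1.23 in vehicle cells (log2 −1.23, FDR 6.3e-13) and by 1.0 in treated cells (log2 −1.0, FDR 7.89e-12). The mast cell genes Cpa3 and Fcer1a and the myeloid gene Tyrobp had no count in any library. Of the 8 blood cell markers, Cd34 alone reached 1 CPM in every library of each group, and it was higher with sorafenib, at 101 against 329 normalized counts at 48 hours and 62.4 against 426 at 7 days. Only 1 other had enough counts to be tested, the mast cell gene Ms4a2, which was lower at 7 days, at 8.87 against 0.484 normalized counts (FDR 0.000322). This gene was singled out with its values known. Summed, the blood cell markers were at 3.69 to 4.50 CPM in DMSO and 10.8 to 15.9 with sorafenib at 48 hours, and at 2.40 to 3.27 against 16.1 to 17.7 CPM at 7 days. Most of this sum came from Cd34, so it does not describe the markers one by one. The part of these markers in the change of Kit was not tested.

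Ret (chr6:118128706-118174769, minus strand), which signals for GDNF-family ligands together with a GFRα co-receptor, differed at 7 days. The counts listed above correspond to 3.24 to 6.04 normalized counts in DMSO and 22.7 to 41.4 with sorafenib at that time, without overlap. Ret was 6.11-fold higher (log2 2.61, SE 0.337, FDR 1.28e-06), on a base of a few counts per library. At 48 hours the counts of 0 to 6 in both groups gave no detectable difference at this depth (FDR 0.714). The responses differed by 2.90 on the log2 scale (SE 0.696, FDR 0.00242), and treated cells at 7 days exceeded treated cells at 48 hours by 3.27 (FDR 1.44e-06). Of 6 neural crest and neuronal markers, Sox10 averaged at most 0.27 normalized counts in a group. Their summed level, which came mostly from Hand2, was lower with sorafenib, at 67.4 to 70.1 CPM against 30.05 to 36.9 at 48 hours and 39.6 to 41.9 against 24.4 to 26.5 at 7 days. Hand2 was lower at both times, while the neuronal gene Elavl4 was higher at 7 days, at 9.58 against 19.5 normalized counts (log2 1.02, FDR 0.00974), both named after their values were seen. The part of these markers in the change of Ret was not tested.

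Of the RAF kinases, Braf rose and Araf did not pass. Braf (chr6:39579870-39702629, minus strand), the RAF kinase with the highest basal activity, had 1224, 1294, 1278 and 1304 normalized counts in DMSO and 2491, 2551, 2648 and 2558 with sorafenib at 48 hours. At 7 days it had 1781, 1736, 1795 and 1748 in DMSO and 2035, 2144, 2127 and 2112 with sorafenib. The groups did not overlap at either time, and at 7 days vehicle libraries were higher and treated libraries lower than at 48 hours. Braf rose 2.01-fold at 48 hours (log2 1.01, SE 0.0335, FDR 1.22e-15) and 1.19-fold at 7 days (log2 0.25, SE 0.0328, FDR 1.26e-06). The difference of −0.75 between responses passed (FDR 1.12e-10), with vehicle cells higher by 0.47 (FDR 4.34e-10) and treated cells lower at 7 days than at 48 hours (log2 −0.28, FDR 6.87e-07). Ndufb2, on the opposite strand, overlaps 870 bases of the annotated Braf exons, and the strand setting of the counting was not given in the sources used here.

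Araf (chrX:20664012-20726772, plus strand), a RAF kinase of low intrinsic activity, had 1688, 1778, 1872 and 1748 normalized counts in DMSO and 1726, 1251, 1862 and 1818 with sorafenib at 48 hours. At 7 days it had 1692, 1652, 1644 and 1681 in DMSO and 1578, 1524, 1436 and 1493 with sorafenib. At 48 hours the groups overlapped, and the lowest treated value came from replicate 2, the library with the step, whereas at 7 days all treated libraries were below all vehicle libraries. The differences were −0.08 at 48 hours (SE 0.0799, FDR 0.399) and −0.14 at 7 days (SE 0.0796, FDR 0.131). An exact two-sided permutation test of the 7-day libraries gave p = 0.0286, the smallest value 4 against 4 libraries allow. Without replicate 2 of sorafenib at 48 hours the 7-day difference of −0.15 passed (FDR 0.000209), as did the difference between responses (−0.17, FDR 0.0035), while the 48-hour difference was 0.03 (FDR 0.537). Without it Araf was also lower at 7 days than at 48 hours in vehicle cells (log2 −0.09, FDR 0.0221) and in treated cells (log2 −0.26, FDR 5.28e-08). The 7-day difference also passed from the 8 libraries of 7 days alone (−0.15, FDR 4.57e-05). It passed with an offset for the library with the step (−0.15, FDR 0.00177).

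The drug is also known to act on other kinases, which were read as a list of 7 further targets. At 48 hours 4 of the 7 were higher and none lower, against 26.9% and 27.7% of all genes. At 7 days 5 were higher and 1 lower, against 28.9% and 27.9%. The median log2 fold changes were 0.51 and 0.22, where all genes tested had −0.05 and 0.02. These counts and those of the lists below include sorafenib 48 hours replicate 2 and were not computed without it. Ddr1 (FDR 0.0596) and Mapk14 (FDR 0.366) did not pass at 48 hours. Their treated libraries spread from 4305 to 6891 and from 2171 to 3150 normalized counts. Ddr2, a receptor tyrosine kinase for fibrillar collagen, rose more than any member on the log2 scale at 48 hours, from 698 ± 47.7 to 9737 ± 323 normalized counts (log2 3.8, FDR 2.59e-22), and from 1152 ± 21.1 to 9428 ± 102 at 7 days (log2 3.03, FDR 1.76e-21). Fgfr1, an FGF receptor, rose by 0.51 and 0.80, and Map3k20, a stress-activated MAP3 kinase, by 0.82 and 0.78 on the log2 scale at 48 hours and 7 days.

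Of 14 genes for ligands of these receptors, 8 were higher and 2 lower at 48 hours and 7 were higher and 3 lower at 7 days, with medians of 0.32 at both times. Pdgfb, whose product binds both PDGF receptors, rose by 2.06 (FDR 2.47e-10) and 0.83 (FDR 3.43e-05) on the log2 scale at 48 hours and 7 days. Its 48-hour value was 2.20 without sorafenib 48 hours replicate 2, the library with the step. Pdgfc, a ligand of PDGFRα, fell by 0.28 (FDR 2.19e-06) and 0.67 (FDR 8.15e-12). The ligands of Flt4 moved differently. Vegfd rose at both times (log2 1.43 and 0.45), with 1.58 at 48 hours without replicate 2. Vegfc rose at 48 hours (log2 0.95, FDR 4.34e-07) and fell at 7 days (log2 −0.47, FDR 0.00141). Vegfa, the main ligand of Flt1 and Kdr, went from 5703 ± 669 to 7687 ± 1492 normalized counts at 48 hours (log2 0.43, FDR 0.00143; 0.56 without replicate 2) and from 1798 ± 120 to 6398 ± 122 at 7 days (log2 1.83, FDR 1.18e-11). Of 6 co-receptor genes, 2 were higher and 1 lower at 48 hours and 2 higher and 3 lower at 7 days, with medians of 0.16 and 0.31. The 2 higher at 7 days were Gfra1 and Gfra2, co-receptors of Ret, both named after their values were seen. Gfra1 was at 25.6 against 135 normalized counts (log2 2.39, FDR 6.65e-12). Gfra2 was at 32.6 against 140 (log2 2.13, FDR 1.57e-10). In DMSO both were lower at 7 days than at 48 hours (log2 −2.08 and −1.06). The neuropilins Nrp1 and Nrp2, which bind VEGF beside its receptors, rose at 48 hours (log2 1.04 and 0.44) and were slightly lower at 7 days (log2 −0.12, FDR 0.0369, and −0.13, FDR 0.0012). The call of Nrp1 at 7 days was lost on leaving out replicate 2, 3 or 4 of either group of that time (FDR 0.0519 to 0.112).

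Downstream of the receptors, 31 genes of the RAS to ERK cascade and its adaptors, scaffolds and chaperones were listed, of which 30 were tested. At 48 hours 16 were higher and 9 lower, and at 7 days 13 were higher and 8 lower, with median log2 fold changes of 0.22 and 0.04. The small GTPases Mras (log2 1.82 and 0.78), Rras2 (1.57 and 1.22) and Rras (0.88 and 0.77) rose at both times. Map2k1, which encodes MEK1, rose by 0.42 and 0.78, while Map2k2 for MEK2 was at 0.01 (FDR 0.902) at 48 hours and at −0.11 (FDR 0.0204) at 7 days. Mapk3 for ERK1 was at −0.13 (FDR 0.0151) at 48 hours and at 0.16 (FDR 0.00325) at 7 days.

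Finally, 10 transcripts known to follow ERK activity, such as the phosphatase genes Dusp4 and Dusp6 and the ETS factors Etv4 and Etv5, were read. At 48 hours 8 were higher and 1 lower with sorafenib, and at 7 days 9 were higher and 1 lower, with median log2 fold changes of 1.58 and 0.87. Epha4, an ephrin receptor, rose from 84.6 ± 4.52 to 1202 ± 69.6 normalized counts at 48 hours (log2 3.83, FDR 9.28e-20) and by 2.17 on the log2 scale at 7 days (FDR 7.08e-18). Dusp4, which inactivates ERK, rose by 2.72 and 1.64, Epha2 by 2.32 and 1.69, and Ccnd1, the gene for cyclin D1, by 1.41 and 2.22. The exceptions were the ERK feedback inhibitors Spry2, lower at 48 hours (log2 −0.48, FDR 3.37e-06), and Spry4, lower at 7 days (log2 −0.34, FDR 0.00273), both named after their values were seen. The 10 ERK output transcripts also differed between times. In DMSO 8 were higher and 2 lower at 7 days than at 48 hours, with a median of 1.10. With sorafenib 9 were higher and 0 lower at 7 days, with a median of 0.52. The differences between the 2 drug responses therefore also hold changes of the vehicle cells. These lists were chosen with results of these samples known, and their counts are read beside the background shares given above.

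**Figure D4:**
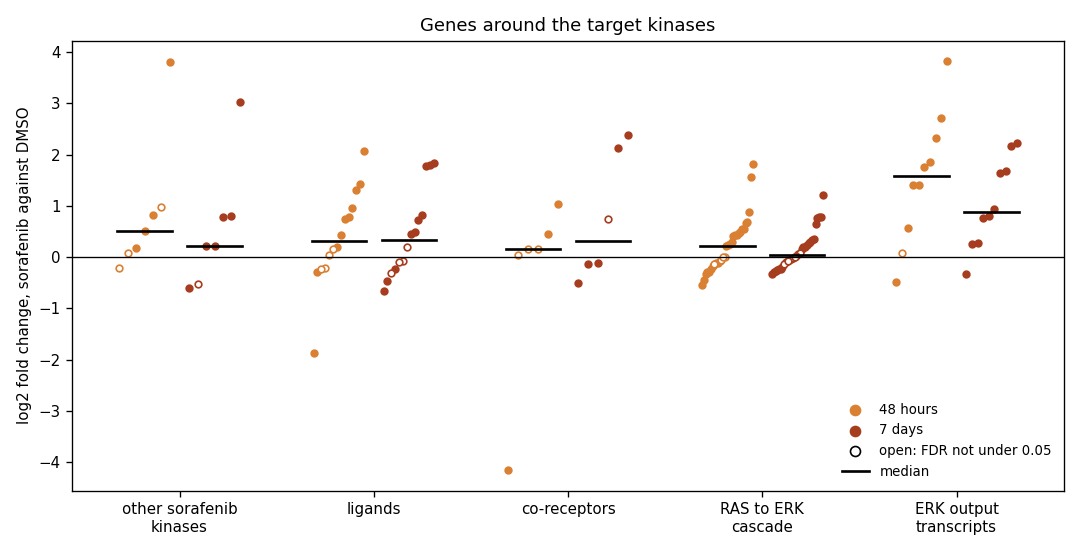
log2 fold change, sorafenib against DMSO (y axis), of every tested gene in 5 lists around the target kinases (x axis), at 48 hours (left column of each list) and 7 days (right). Filled points passed an FDR of 0.05, open points did not, and horizontal bars are medians. The ERK output list has the highest medians, 1.58 and 0.87, and the lowest point, a co-receptor gene at 48 hours, is Gfra3, which had no count in the treated libraries and whose fitted value is no measure of size.

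Genes whose 4 group means ran most like those of a member were sought among 10639 other genes, by the Euclidean distance between centred log2 means, which is 0 for identical patterns. Pdgfra, whose own means spanned 3.32 log2 units, was followed most closely by B3gnt9 (distance 0.185), Fah (0.242) and Sesn1 (0.259). Flt1, spanning 3.99, was nearest to Adamtsl5 (0.309), Mid2 (0.330) and Cftr (0.332), and Kdr, spanning 2.64, to Itpr3 (0.227), Emx2 (0.263) and Pwwp2b (0.294). For Flt4 the nearest were Abi2 (0.0293), Acadm (0.0342) and Cblb (0.0485), for Kit Cercam (0.163), Bdh2 (0.220) and Cebpa (0.235), and for Pdgfrb Ptpru (0.130), Efna1 (0.142) and Tbc1d16 (0.182). Braf was nearest to Gng12 (0.0581), Rtn4ip1 (0.0655) and Msrb3 (0.0684), and Araf, whose means spanned only 0.23, to Cpsf3 (0.0164), Btbd6 (0.0188) and Nxt2 (0.0198). With 4 group means such likeness describes these groups only.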

How the data were processed

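RNA of p53-/-; Myc hepatoblasts was sequenced as poly(A)-selected stranded mRNA libraries, 4 in each of 4 groups. The deposited values are raw counts per gene. The submitters' processing notes name STAR 2.7.1a, featureCounts 2.0.6, DESeq2 1.40.2 and GRCm39, while the gene annotation and the strand setting are not given in the sources used here.

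Genes with fewer than 10 counts in total were removed (20396 genes, leaving 20444). Counts were scaled by TMM (factors 0.966 to 1.04) and tested with edgeR 4.0.16 (R 4.3.3), by glmQLFit and glmQLFTest with the 4 groups in 1 model. The p-values were adjusted by Benjamini-Hochberg over all genes tested, and genes with FDR under 0.05 were called. Normalized counts are CPM on TMM-scaled library sizes multiplied by 25.1, so that a gene at 1 CPM has 25.1 normalized counts. A count of 3 in a library, the limit that a count of 0 allows, corresponds to 2.44 to 4.54 normalized counts, for counting error only. Positions and exon lengths came from GENCODE vM39 (GRCm39), in which 32251 of the 40840 gene names had a single position. Promoter sequences were read from the GRCm39 genome at the start of the canonical transcript of each protein-coding gene in that annotation. The 21770 windows so obtained gave the background shares. The script was tested on simulated data.

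The members and gene lists were chosen with earlier results of these data known. From each list the text names the 3 called genes with the largest absolute change at each time, among genes averaging 100 or more normalized counts, and Map2k1, Map2k2 and Mapk3. Some genes are not reported here. Alternatives were DESeq2 1.42.0, other scalings and filters, single time points, a replicate block, each library left out, an offset for the library with the step, and other limits for a call or for expression. The most alike replicate libraries differed by a chi-square of 1.58 per gene, so none was counted as a repeat of another.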

Additional observations from a re-analysis of the deposited data

Results flagged for a closer look

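Of the 116 groups of 4 libraries examined for the members and the genes named with them, 5 held a library far from the other 3 by Dixon's test, and chance alone flags about 1 in 20 groups. DMSO 48 hours replicate 3 had 141 normalized counts of Flt1, where the others had 108 to 112, and 66.4 of Kdr, where the others had 41.1 to 44.9. The same library was low for Ccnd1, at 3580 against 3776 to 3787. Sorafenib 48 hours replicate 2, the library with the step along the genome, was low for Vegfa at 5470 against 8275 to 8722. DMSO 48 hours replicate 1 had 393 normalized counts of Rras, where the others had 436 to 442.

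The response to sorafenib differed between 7 days and 48 hours, by the interaction term of edgeR's quasi-likelihood test, for 5 of the 9 members. As the 7-day response minus the 48-hour response on the log2 scale, the difference was −0.75 for Braf, 1.33 for Kdr, −0.53 for Flt4, 0.23 for Kit and 2.9 for Ret. It passed for 36.8% of all genes tested. For 17 named genes around the members it passed as well, and as these were picked for large changes at one time or the other, the choice favours such differences. It was −0.77 for Ddr2, 0.3 for Fgfr1, −1.23 for Pdgfb, −0.99 for Vegfd, −1.42 for Vegfc, 1.4 for Vegfa and −0.38 for Pdgfc. Without sorafenib 48 hours replicate 2 it was −1.37 for Pdgfb, −1.14 for Vegfd and 1.27 for Vegfa. The neuropilins gave −1.16 for Nrp1 and −0.57 for Nrp2. In the cascade it was −1.03 for Mras, −0.35 for Rras2, 0.36 for Map2k1 and 0.28 for Mapk3. Of the ERK output genes, Epha4 gave −1.65, Dusp4 −1.08, Epha2 −0.63 and Ccnd1 0.81.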

How the results depend on the processing

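The number of members called kept within 1.5 times under every change of tool, scaling, filter and library set. With a change of 1 or more on the log2 scale required as well, 4 members were called at 48 hours, 4 at 7 days, 2 for the difference between responses, 3 between times in DMSO and 4 between times with sorafenib. Scaling by total counts alone moved the median of all genes at 48 hours from −0.05 to −0.12 and that of the difference between responses from 0.02 to 0.12. Values near 0 changed sign. Map2k2 at 48 hours was −0.011 with DESeq2, −0.0093 with its size factors, −0.064 with total counts, −0.033 with at least 10 counts in every sample and −0.019 with the 8 libraries of that time. Araf was 0.067 at 48 hours with the offset, and its difference between responses was 0.035 with total counts and 0.0049 with at least 10 counts in every sample, where Map3k20 gave 0.049 and 0.021. Flt4 between times in DMSO was −0.0298 with total counts.

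Leaving out each library in turn, the values at 48 hours ranged from −0.17 to 0.028 for Araf, −0.59 to 0.0298 for Ret and −0.033 to 0.0072 for Map2k2, and for the difference between responses from −0.17 to 0.024 for Araf. The counts of called members ranged from 4 to 6 for that difference. Deviations of same-numbered sorafenib and DMSO libraries correlated at −0.05 to 0.01 at 48 hours and −0.01 to 0.12 at 7 days. At 7 days number 3 reached 0.12 (other numbers at most 0.08) and number 4 reached 0.10 (at most 0.01). Such correlations cannot exclude a shared culture or batch, and the main fit used no pairing. With the replicate number as a block, Flt4 and Ret between times in DMSO were −0.0034 and −0.21, Kdr there lost its call (−0.58, FDR 0.106), and no other member's call changed. Per kilobase of exon, 6 or 7 members reached 1 CPM in each group, and with the canonical transcript, a setting added after seeing the data, also 6 or 7. Ret gave no value with at least 10 counts in every sample. For Ret and Kdr the depth limits what can be seen in vehicle cells.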
